A study of Mus musculus with 84 samples.

Results

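Surfactant and secretoglobin transcripts were followed in lung metastases, primary mammary tumors and mammary glands of mice. The 4 genes were Sftpb and Sftpc, which encode surfactant proteins B and C, and Scgb1a1 and Scgb3a2, which encode small secreted proteins of the airway lining. Every clone that carried one of these names as its single symbol on the 15k cDNA array was taken. This gave 5 of 15360 clones, namely clones 11g9 and 19a23 of Sftpb, clone 19o4 of Sftpc, clone 2j6 of Scgb1a1 and clone 4f14 of Scgb3a2. Of all clones, 11860 carried a single symbol, for 7766 genes.

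The metastases were 10 lung lesions of MMTV-Wnt-1 transgenic mice (WntM), 3 of MMTV-Neu transgenic mice, and 2 of nontransgenic hosts that had received primary tumor cells of MMTV-Neu mice through the tail vein. These last 5 are called NeuM together, and the tail-vein arrays carry the numbers 53E and 56E. They were compared with 23 primary tumors of MMTV-Wnt-1 mice (WntT) and 12 of MMTV-Neu mice (NeuT). Hyperplastic glands of MMTV-Wnt-1 mice (WntHMG, 7 arrays) were set beside virgin glands of nontransgenic mice (VMG, 5 arrays). Both transgenes are driven by the mouse mammary tumor virus promoter, which is active in mammary epithelium but not in it alone. The Neu transgene was the wild-type rat sequence. The MMTV-Wnt-1 mice were of mixed FVB, SJL and C57BL/6 background, whereas the MMTV-Neu mice and the nontransgenic donors of virgin glands were FVB, so transgene and strain cannot be told apart. The labels gave no ages and no treatment. The paper lists the same age for both kinds of gland, older mice for all Neu tumors and a wide range of ages for Wnt-1 tumors. It lists none for metastases, and age was not adjusted for. How much surrounding lung was taken with each lesion is not given in the sources used here.

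In normal lung, alveolar type II cells make surfactant, a film of lipid and protein that lowers surface tension in the air spaces. Sftpc is made almost only by these cells, and Sftpb by type II and club cells. Scgb1a1, also called CC10 or uteroglobin, and Scgb3a2 are secreted by club cells of the conducting airways.

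Each array gave the log2 ratio of a sample, labeled with Cy5, to a reference RNA, labeled with Cy3, which the paper describes as pooled from several organs that included lung. A log2 ratio of 0 therefore means as much signal as in this reference, and the ratios of different genes do not compare their transcript levels. The paper states a single reference preparation and a single print batch per array type, but its sample list holds no metastases. Whether the metastasis arrays shared both is not stated there. A batch difference between metastasis arrays and the other arrays was not tested and cannot be told apart from tissue. Array medians ran between -0.144 and 0.0431 over all 65 arrays, and 6 arrays had a spread of log2 ratios over 1.3 (SD), 3 of them WntM. No pair of arrays held identical values. The labels do not say whether equal numbers in the names of a metastasis and a tumor mark the same mouse, or whether NeuM 53 and 53E, and NeuM 56 and 56E, come from the same tumor. If they do, the 5 NeuM arrays are not independent and p-values over them are too small.

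Of the 4 genes, Sftpb alone had an entry in the RefSeq promoter table used here. Its 250 bases before the transcript start are shown because 2 clones of this gene carry the comparison below. They lie at chr6:72304360-72304609 of GRCm38.p6 on the plus strand, with searched motifs in capitals.

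Sftpb promoter: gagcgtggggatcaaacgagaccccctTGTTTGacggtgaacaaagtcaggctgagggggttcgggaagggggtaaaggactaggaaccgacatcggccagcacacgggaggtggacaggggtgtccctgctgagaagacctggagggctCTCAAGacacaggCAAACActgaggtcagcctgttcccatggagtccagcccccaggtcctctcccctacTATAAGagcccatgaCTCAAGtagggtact

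The capitals mark CTCAAG, a core of sites bound by the lung transcription factor NKX2-1, with 2 matches that began 100 and 15 bases before the start. They also mark TGTTTG, a forkhead core, with 2 matches, one on the minus strand, and TATAAG, searched on the plus strand, 30 bases before the start. No match overlapped another. CTCAAG was present on either strand in 13.3%, TGTTTG in 16% and TATAAG in 4.01% of 32851 promoter windows of this length. A match describes letters only, and binding was not measured.

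All 4 genes were higher in Wnt-1 metastases than in Wnt-1 primary tumors. All 5 clones were called by limma at an adjusted p under 0.05, where 2.47% of all clones were called higher and 2.15% lower. In 4 of the 5 the groups did not overlap, as was the case for 0.169% of all clones. Among 15360 clones ordered by log2 difference, Scgb1a1 ranked 1, Sftpc 2, Sftpb clone 19a23 3, Scgb3a2 6 and Sftpb clone 11g9 29.

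**Figure D1:**
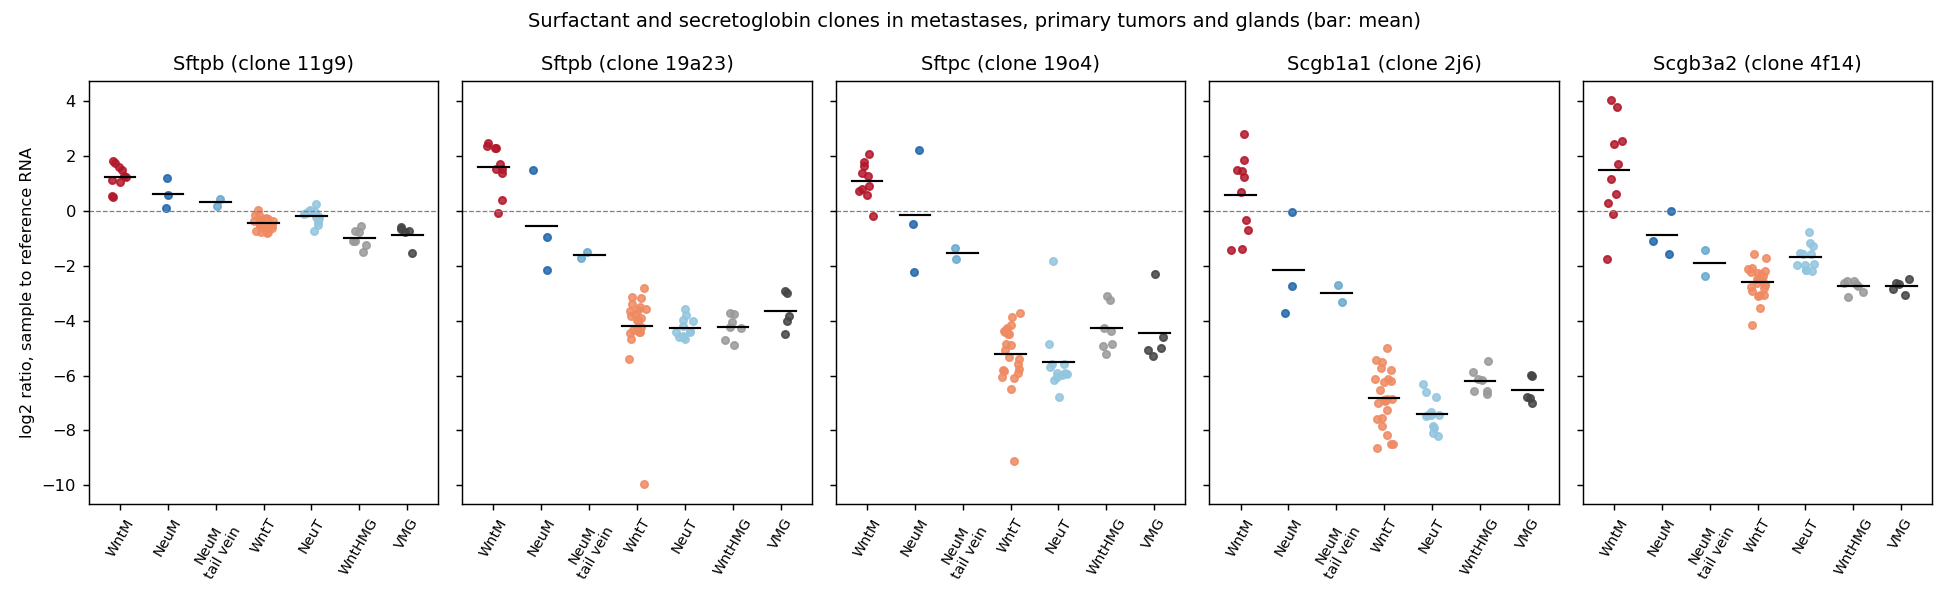
Log2 ratio of sample to reference RNA (y axis) on each array for the 5 clones, with 1 point per array and a bar at the mean of WntM (10), NeuM (3), NeuM of tail-vein hosts (2), WntT (23), NeuT (12), WntHMG (7) and VMG (5). Metastases lie above tumors and glands for Sftpb clone 19a23 and Scgb1a1 with no overlap, whereas Scgb3a2 of NeuM overlaps with NeuT.

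The alveolar gene Sftpc had log2 ratios with a lowest value of -0.20, a median of 1.09 and a highest value of 2.08 in WntM, against -9.12, -5.06 and -3.72 in WntT. All 10 metastases were above all 23 tumors, and 9 of them were above the reference RNA. The means were 1.10 ± 0.67 in WntM (SD, n = 10) and -5.22 ± 1.16 in WntT (SD, n = 23), a difference of 6.33 ± 0.38 (SE), or 80.3-fold, with a 95% interval of 46.8 to 137.9-fold (adjusted p = 6.78e-14, limma). The lowest tumor, WntT 42, stood far under the other tumors for both Sftpc and Sftpb clone 19a23. Its array had the widest spread of log2 ratios in WntT (SD 1.78) and 247 ratios under 0.01. The part of array spread in its low values was not tested.

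Sftpb was read by 2 clones. Clone 19a23 had a lowest log2 ratio of -0.0583, a median of 1.63 and a highest of 2.48 in WntM, against -9.97, -3.97 and -2.79 in WntT. No metastasis reached down to the tumors. The difference was 5.79 ± 0.46 (SE), or 55.2-fold, with a 95% interval of 28.8 to 105.7 (adjusted p = 5.32e-11, limma). Clone 11g9 had 0.51, 1.26 and 1.81 as lowest, median and highest log2 ratio in WntM, against -0.79, -0.50 and 0.0433 in WntT. The groups of clone 11g9 did not overlap either, but its difference was only 1.69 ± 0.11 (SE), or 3.23-fold (2.75 to 3.80, adjusted p = 8.31e-13, limma). The 2 clones thus measured changes of very different size under one gene name. Over the 10 WntM arrays they varied together (Pearson's r = 0.947, permutation p = 2.8e-04; Spearman's rho = 0.830, permutation p = 0.00476), and r was 0.857 without the 2 arrays farthest from the median. Clone 11g9 stood near 0 in tumors, whereas clone 19a23 stood far below 0, and which of the 2 reads Sftpb alone was not tested.

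The airway gene Scgb1a1 gave the widest difference on the array. Its lowest, median and highest log2 ratios were -1.42, 0.96 and 2.82 in WntM, against -8.64, -6.84 and -5.00 in WntT. All WntM arrays were above all WntT arrays, although only 6 of 10 exceeded the reference. The means were 0.58 ± 1.45 in WntM (SD, n = 10) and -6.83 ± 1.04 in WntT (SD, n = 23), a difference of 7.41 ± 0.43 (SE), or 170.2-fold (92.5 to 313.4, adjusted p = 4.23e-14, limma). Of the 23 tumors, 13 had an Scgb1a1 ratio under 0.01. Spot intensities were not analysed here, so how far such low ratios stand above background is unknown and the size of the fold is uncertain.

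Scgb3a2 had the widest spread of the 5 clones among the Wnt-1 metastases. Its lowest, median and highest log2 ratios were -1.74, 1.43 and 4.04 in WntM, against -4.15, -2.60 and -1.56 in WntT. Of the 10 metastases 9 were above every tumor, and WntM 62 lay inside the range of the tumors. The difference was 4.08 ± 0.40 (SE), or 16.9-fold (9.63 to 29.6, adjusted p = 8.27e-09, limma). For each of the 5 clones a two-sided permutation test of WntM against WntT with 100000 resamples gave p = 1e-05, the smallest it can give. The samples were whole tissue, in which more cells of a type and more RNA per cell cannot be told apart.

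In Neu metastases Sftpc, Scgb1a1 and 1 of the 2 Sftpb clones rose, and Scgb3a2 did not pass the test. Against Neu primary tumors, 3 of the 5 clones were called higher by limma, those of Sftpb (19a23), Sftpc and Scgb1a1, where 0.189% of all clones were called higher. In 2 of the 5, Sftpb clone 19a23 and Scgb1a1, the groups did not overlap, as was the case for 0.182% of all clones. The clone 11g9 of Sftpb did not pass either. Without the tail-vein arrays, 3 of 5 clones were called as well.

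Scgb1a1 log2 ratios were -2.73, -3.72 and -0.0385 in NeuM 53, 56 and 61, and -2.69 and -3.31 in NeuM 53E and 56E, against -8.20, -7.45 and -6.32 as lowest, median and highest in NeuT. All 5 metastases were above all 12 tumors, and NeuM 61 was far above the other 4. The difference was 4.91 ± 0.44 (SE), or 30.1-fold (15.8 to 57.2, adjusted p = 2.87e-05, limma). Of the 12 tumors, 10 had an Scgb1a1 ratio under 0.01, so the size of this fold is uncertain too. Sftpb clone 19a23 had -2.14, -0.96 and 1.51 in NeuM 53, 56 and 61, and -1.48 and -1.72 in NeuM 53E and 56E, against -4.67, -4.39 and -3.59 as lowest, median and highest in NeuT. Here too the groups were apart, with NeuM 61 alone above the reference. The difference was 3.31 ± 0.40 (SE), or 9.89-fold (5.54 to 17.6, adjusted p = 7.71e-04, limma).

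Sftpc had log2 ratios of -2.24, -0.46 and 2.22 in NeuM 53, 56 and 61, and -1.34 and -1.74 in NeuM 53E and 56E, against -6.80, -5.90 and -1.82 as lowest, median and highest in NeuT. The groups overlapped because 1 tumor, NeuT 76, was at -1.82, above NeuM 53, whereas the other 11 tumors were below all metastases. The difference was 4.81 ± 0.69 (SE), or 28-fold (10.3 to 76.4, adjusted p = 0.00449, limma). Exact two-sided permutation tests of NeuM against NeuT over 6188 assignments gave p = 3.23e-04 for Sftpc and p = 1.62e-04 for both Scgb1a1 and Sftpb clone 19a23.

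Scgb3a2 did not pass in the Neu metastases. Its log2 ratios were -1.08, -1.55 and 0.0095 in NeuM 53, 56 and 61, and -1.41 and -2.36 in NeuM 53E and 56E, against -2.19, -1.75 and -0.75 as lowest, median and highest in NeuT. Only NeuM 61 was above all tumors, and NeuM 56E was below all of them. The difference was 0.41 ± 0.29 (SE), or 1.33-fold, with a 95% interval of 0.866 to 2.04-fold (adjusted p = 0.827, limma; exact permutation p = 0.211). Sftpb clone 11g9 averaged 0.51 ± 0.44 in NeuM (SD, n = 5) and -0.19 ± 0.26 in NeuT (SD, n = 12), a 1.62-fold difference (1.27 to 2.07) that did not pass after adjustment over all clones (adjusted p = 0.136, limma), with an exact permutation p = 4.85e-04 for this clone alone. With all groups in one fit, this clone passed (adjusted p = 0.0295, limma).

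**Figure D2:**
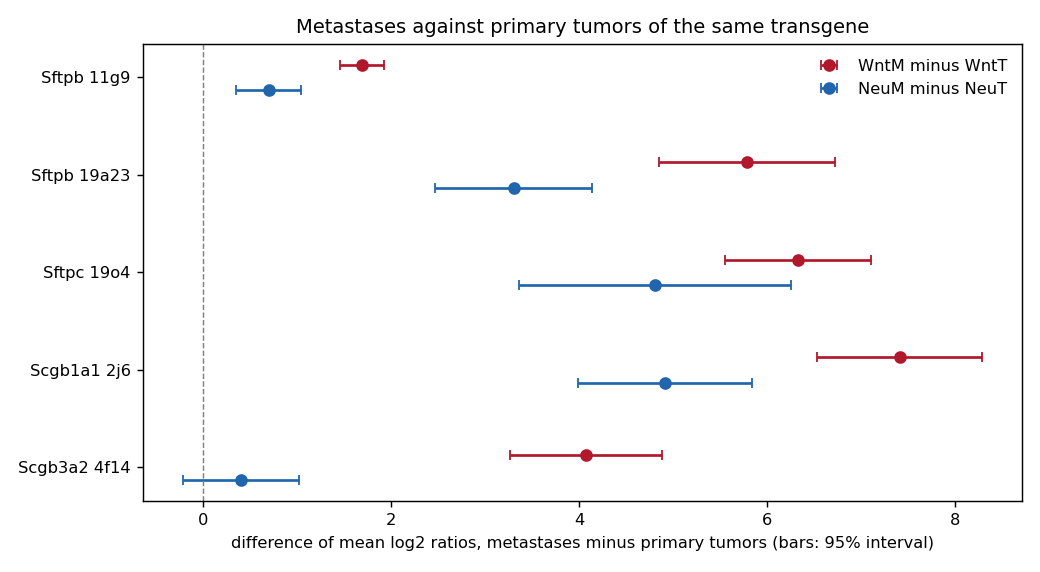
Difference of mean log2 ratios (x axis), WntM minus WntT in red and NeuM minus NeuT in blue, with 95% intervals as bars, for each clone (y axis). Every WntM difference is above its NeuM counterpart, and the interval of Scgb3a2 in NeuM spans 0.

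Whether the metastasis difference itself differed between the transgenes was tested as an interaction. The test passed for Scgb3a2 and Sftpb clone 11g9, 2 of the 5 clones, where 0.0716% of all clones were called higher and 0.0326% lower. For Scgb3a2 the difference was 4.08 for WntM against WntT and 0.41 for NeuM against NeuT, an interaction of 3.67 ± 0.61 on the log2 scale (SE, as for the following), or 12.7-fold (adjusted p = 8.03e-04, limma), rank 2 of all clones. For Sftpb clone 11g9 the interaction was 1.00 ± 0.20 (adjusted p = 0.0108, limma), and it no longer passed without NeuM 53 (adjusted p = 0.0694) or NeuM 53E (adjusted p = 0.0682). The values of Scgb1a1 (2.50 ± 0.70, adjusted p = 0.211), Sftpb clone 19a23 (2.48 ± 0.72, adjusted p = 0.239) and Sftpc (1.52 ± 0.75, adjusted p = 0.664) did not pass in limma. Without NeuM 61, Scgb1a1 (adjusted p = 0.0304) and Sftpb clone 19a23 (adjusted p = 0.0478) passed as well, and without WntT 42, a setting added after the values were seen, Sftpb clone 19a23 did (adjusted p = 0.0170).

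Set directly against each other, WntM exceeded NeuM for all 5 clones in limma, where 10.4% of all clones were called higher. Scgb1a1 averaged 0.58 ± 1.45 in WntM and -2.50 ± 1.44 in NeuM, an 8.42-fold difference (2.83 to 25.1, adjusted p = 0.00766, limma, exact permutation p = 0.00366). Scgb3a2 averaged 1.48 ± 1.80 in WntM and -1.28 ± 0.86 in NeuM (SD, n = 10 and 5), or 6.76-fold (2.07 to 22.1, adjusted p = 0.0224, limma). Sftpb clone 19a23 differed 5.86-fold (adjusted p = 0.00377), Sftpc 3.53-fold (adjusted p = 0.0346) and Sftpb clone 11g9 1.66-fold (adjusted p = 0.0349) in limma. For each clone the 2 groups overlapped, whereas 4.02% of all clones had every WntM above every NeuM. These calls rested on few Neu arrays. Without both tail-vein arrays 0 of 5 passed, without NeuM 53 or 53E 3 of 5, without NeuM 56 or 56E 2 of 5, and without NeuM 61 all 5. These values use the same metastasis arrays as the comparisons with tumors and are no separate evidence.

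Single metastases differed widely from each other in all 4 genes. Averaged over the genes, with both Sftpb clones averaged first, log2 ratios in WntM ran between -0.48 in WntM 62 and 2.53 in WntM 47. In NeuM they ran between -2.01 in NeuM 56E and 0.89 in NeuM 61. WntM 47, 19, 50, 38 and 42 were the 5 highest of the 15 metastases, NeuM 61 was the sixth, and the other 4 NeuM arrays were the 4 lowest. WntM 19 and 50 are among the arrays of wide spread, and the part of array spread in these values was not tested.

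**Figure D3:**
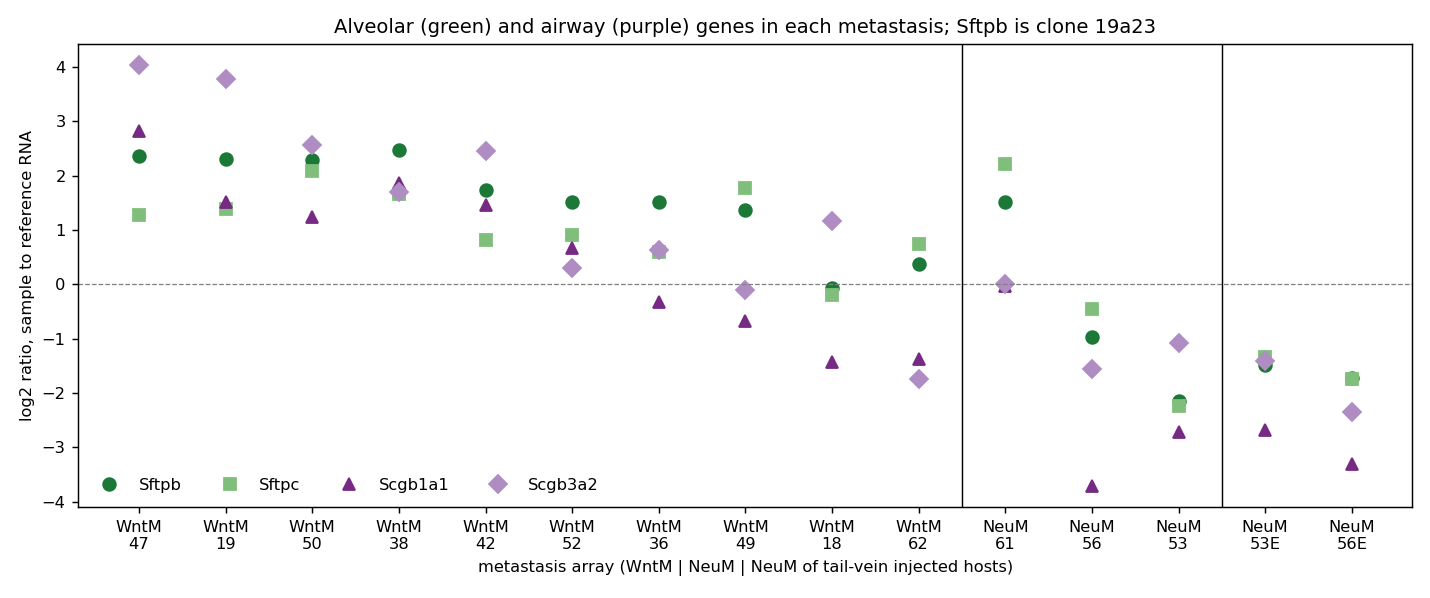
Log2 ratio of sample to reference RNA (y axis) of Sftpb clone 19a23, Sftpc, Scgb1a1 and Scgb3a2 in each of the 15 metastases (x axis), ordered within each group by the mean of the genes. The airway genes Scgb1a1 and Scgb3a2 span between -1.74 and 4.04 in WntM, and Sftpb and Sftpc, here counted as alveolar, between -0.20 and 2.48.

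Among the 10 Wnt-1 metastases, 6 gene pairs were compared with permutation tests. Sftpb varied with Scgb1a1 (Pearson's r = 0.889, adjusted permutation p = 0.00288; Spearman's rho = 0.830, adjusted p = 0.0281; r = 0.780 without the 2 arrays farthest from the median), and so did Scgb1a1 with Scgb3a2 (r = 0.821, adjusted permutation p = 0.0118; rho = 0.782, adjusted p = 0.0293; r = 0.848). Sftpb also varied with Scgb3a2 (r = 0.721, adjusted permutation p = 0.0272; rho = 0.758, adjusted p = 0.0293; r = 0.798). Sftpb and Sftpc gave r = 0.757 (adjusted permutation p = 0.0208; rho = 0.697, adjusted p = 0.0464), which fell to 0.495 without WntM 18 and 62 and so rested on these samples. Sftpc was not related past the threshold to Scgb1a1 (r = 0.532, adjusted permutation p = 0.134; rho = 0.491, adjusted p = 0.185) or Scgb3a2 (r = 0.291, adjusted permutation p = 0.416; rho = 0.309, adjusted p = 0.387). Within the 7 WntM arrays whose spread was under 1.3, Sftpb with Scgb1a1 (r = 0.901, adjusted permutation p = 0.0193) and Scgb1a1 with Scgb3a2 (r = 0.850, adjusted permutation p = 0.0342) passed by Pearson's r, the second not by Spearman's rho (0.75, adjusted permutation p = 0.197), whereas Sftpb with Sftpc (r = 0.704) and with Scgb3a2 (r = 0.668, both adjusted permutation p = 0.147) did not. The values of one array share its labeling and scaling.

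The balance of airway to alveolar genes was taken as the mean log2 ratio of Scgb1a1 and Scgb3a2 minus that of Sftpb and Sftpc. Sftpb was counted as alveolar although club cells make it too. Within WntM it varied with Scgb1a1 (r = 0.889) as well as with Sftpc (r = 0.757), so the balance does not part the 2 cell types cleanly. It was -0.23 ± 1.23 in WntM (SD, n = 10) and -1.42 ± 0.78 in NeuM (SD, n = 5). It ran between -2.15 in WntM 62 and 1.81 in WntM 47, so the Wnt-1 metastases alone covered most of the range. The difference of 1.19 between WntM and NeuM did not pass (exact two-sided permutation p = 0.0679). It passed without NeuM 53 (exact permutation p = 0.0360). With any other single Neu array left out it did not, nor without both tail-vein arrays (exact permutation p = 0.147).

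**Figure D4:**
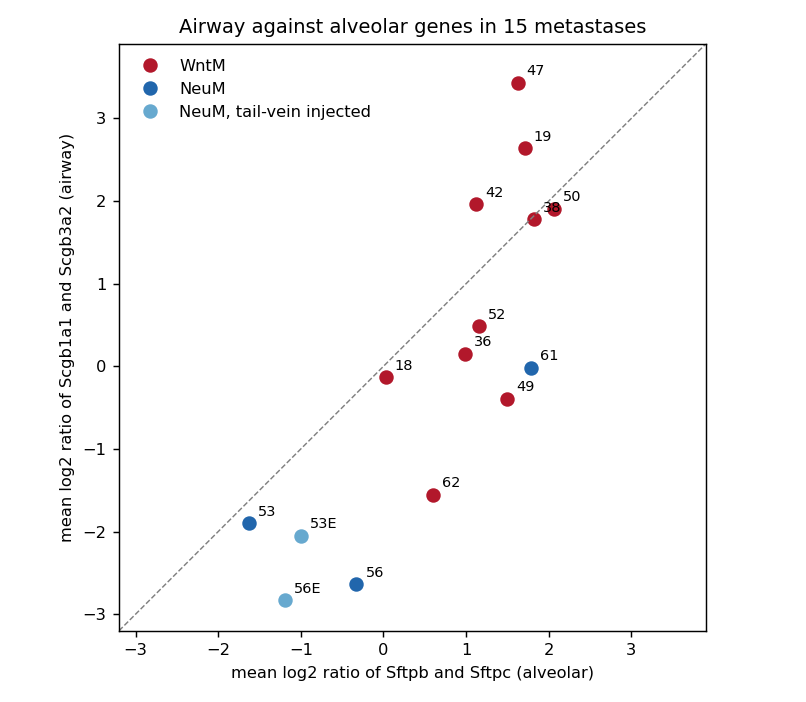
Mean log2 ratio of the airway genes Scgb1a1 and Scgb3a2 (y axis) against that of Sftpb and Sftpc, here counted as alveolar (x axis). There is 1 point per metastasis array, with its number beside it, and a dashed line where both are equal. WntM 47, 19 and 42 lie above the line, and NeuM 56, NeuM 61, WntM 49 and WntM 62 lie farthest below it.

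Among primary tumors and glands, the clones were called in some comparisons with VMG and not in others. Primary Wnt-1 tumors differed from virgin glands for 1 of the 5 clones, Sftpb 11g9, which was 1.33-fold higher (adjusted p = 0.00737, limma), where 24.3% of all clones were called higher. None of the 5 separated WntT from VMG, as 7.09% of all clones did with WntT higher. The call of Sftpb 11g9 was lost without VMG 13 (0.24 in place of 0.41 on the log2 scale). Neu tumors were higher than virgin glands for Scgb3a2, with mean log2 ratios of -1.69 ± 0.45 in NeuT (SD, n = 12) and -2.74 ± 0.23 in VMG (SD, n = 5), or 2.07-fold (adjusted p = 2.93e-04, limma), and for Sftpb clone 11g9, 1.60-fold (adjusted p = 0.0014, limma). Among all clones 24.9% were called higher there. All 12 NeuT arrays were above all 5 VMG arrays for Scgb3a2, as for 10.7% of clones. Sftpb clone 19a23 fell by 0.62 and Scgb1a1 fell by 0.89 on the log2 scale in NeuT against VMG (adjusted p = 0.0316 and 0.0123, limma), where 27.3% of all clones were called lower. For Scgb1a1, 10 of 12 NeuT and 3 of 5 VMG arrays had ratios under 0.01, and the size of its fall is uncertain. The call of 19a23 was lost without VMG 13 (-0.46) or VMG 29 (-0.44). Sftpc differed by -1.07 (adjusted p = 0.152, limma), and by -1.40 without NeuT 76, a setting added after the values were seen, under which it passed (adjusted p = 0.00542, limma). Under quantile normalization the differences turned upward for Sftpb clone 19a23 (0.38) and Scgb1a1 (0.48), and neither passed there. In WntHMG against VMG none of the 5 was called, where 8.93% of clones were called higher and 13% lower. Without VMG 17, Sftpb clone 19a23 was called lower in WntHMG (-0.80, adjusted p = 0.0491, limma). No clone of the 5 separated these groups, as 5.41% of all clones did with WntHMG higher. Sftpc averaged -4.28 ± 0.82 in WntHMG (SD, n = 7) and -4.45 ± 1.23 in VMG (SD, n = 5).

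Other genes of the same cell types showed smaller differences. Over all 7766 genes, 2.88% were called higher and 2.58% lower in WntM against WntT by limma, with a median log2 difference of -0.03. Of 7 other club and airway secretory genes on the array, 4 were called higher, with a list median of 0.76. They included Cyp2f2, a club cell cytochrome P450 (7.00-fold, adjusted p = 8.92e-05), Cyp2b10, another cytochrome P450 (2.57-fold), and Scgb3a1, a further secretoglobin (2.51-fold). Of 9 other alveolar type II genes 3 were called higher and 0 lower, with a median of 0.23. These were Dram1, an autophagy regulator (2.53-fold), Lpcat1, which makes surfactant phospholipid (1.54-fold), and Fasn, the fatty acid synthase (1.53-fold). The value of Dram1 is the mean of 2 clones that differed, 29g17 at 6.81-fold and 37b14 at 0.943-fold, the latter not called. Sftpd, another surfactant protein, did not pass (0.14, adjusted p = 0.745). The mean log2 ratio of the type II list per array ran between -0.76 and -0.16 in WntM, against -1.46 and -0.49 in WntT, and was higher, between 0.60 and 0.88, in VMG, which holds no lung. Of 6 alveolar type I genes 3 were called higher, Clic5, a chloride channel protein (1.79-fold), Emp2, a membrane protein (1.46-fold), and Cav1, the caveolar coat protein (1.40-fold). The mean of the type I list per array was also higher in VMG, between 0.61 and 0.92, than in WntM, between -0.58 and 0.16. For the club and airway list the median of the array means was higher in WntM (-0.42) than in VMG (-0.77).

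Genes of lung stroma and vessels also differed. Of 8 genes of lung fibroblasts and smooth muscle 5 were called higher in WntM against WntT, with Ces1d, a carboxylesterase, at 12.7-fold, Fhl1, a LIM domain protein, at 4.47-fold and Npnt, a matrix protein, at 1.91-fold. Of 19 endothelial genes 9 were called higher and 1 lower, with Ace, the angiotensin-converting enzyme, at 2.63-fold, Ramp2, a receptor partner in vessels, at 2.33-fold and Tie1, an endothelial kinase, at 1.51-fold. Virgin glands, which hold no lung, stood higher still in both lists. The median of the array means of the fibroblast and smooth muscle list was -0.96 in WntM, -2.13 in WntT and -0.14 in VMG. That of the endothelial list was -0.36 in WntM, -0.96 in WntT and -0.025 in VMG. Of 8 alveolar macrophage genes 0 were called higher and 1 lower, Mrc1, the mannose receptor, at 0.651-fold. The 1 ciliated cell gene, 2 mesothelial genes and 2 red blood cell genes gave no call.

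Mammary, fat and muscle lists were counted in the same way. Of 8 luminal genes 2 were called higher, Wfdc2 (2.64-fold) and Tspan8 (1.94-fold), and 1 lower, Krt19, a luminal keratin (0.587-fold). Krt19 stood above the reference in both, at 1.83 ± 0.34 in WntM (SD, n = 10) and 2.60 ± 0.39 in WntT (SD, n = 23). Of 8 basal genes 2 were higher, Cnn1 and Mylk, both of the contractile apparatus, of 9 adipocyte genes 1, the fatty acid transporter Cd36 (2.00-fold), and of 6 skeletal muscle genes 1 was lower, the calcium pump Atp2a1 (0.687-fold). In NeuM against NeuT, where 0.206% of genes were called higher and 0.0129% lower, 1 of 6 type I, 4 of 19 endothelial and 1 of 8 fibroblast and smooth muscle genes were called higher, and none of the other type II or airway genes. The type II gene Dram1 was not called as the mean of its 2 clones (adjusted p = 0.0903, limma). Its clone 29g17 alone was called higher in NeuM (1.62 on the log2 scale, adjusted p = 0.0232, limma), and clone 37b14 was not (0.29, adjusted p = 0.860, limma). The part that lung cells inside the samples had in the differences of the surfactant and secretoglobin genes was not tested.

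**Figure D5:**
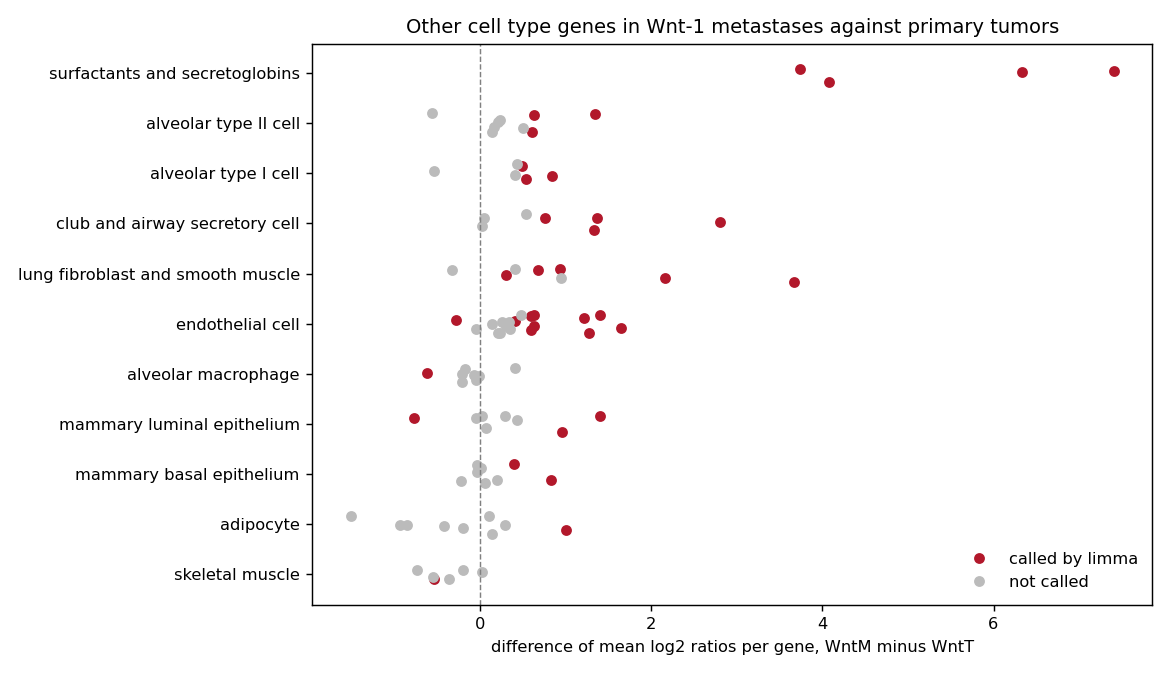
Difference of mean log2 ratios between WntM and WntT (x axis) for each gene on the array, by list (y axis), with genes called by limma in red and others in gray. The 4 surfactant and secretoglobin genes lie between 3.74 and 7.41, above every other listed gene.

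Clones that followed the mean of the 4 genes across metastases were sought by Pearson's r over the 15 metastasis arrays. Each array was centred on the mean of its group, with the tail-vein arrays as a group of their own. The genes were not scaled before averaging, and within WntM the mean had r = 0.958 with Scgb1a1 but 0.609 with Sftpc. The arrays share their scaling, and the r values are descriptions. Of 15355 other clones 56 (0.365%) had r over 0.8. Among the 375 other clones called higher in WntM against WntT, 38 (10.1%) did. The 8 genes of highest r included the lung list genes Ces1d (0.943), Cyp2f2 (0.915) and Dram1 clone 29g17 (0.882). The others were Cdc37l1 clone 34a1 (0.964), H2aj clone 1d2 (0.956), Rufy3 clone 2l24 (0.955), Cdkl2 clone 1b2 (0.955) and 9130230L23Rik (0.896).

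In several of these, only 1 clone of the gene followed. Cdc37l1, named for likeness to a chaperone partner, was 4.59-fold higher in WntM than in WntT by clone 34a1 (adjusted p = 1.79e-06, limma), whereas its other clones gave log2 differences of -0.0045 and 0.0172. Rufy3 was 25.4-fold higher by clone 2l24 (adjusted p = 2.85e-13) but 1.09-fold by clone 29c16 (adjusted p = 0.46, limma). H2aj, a histone gene, was 16.6-fold higher by clone 1d2 and 1.00-fold (adjusted p = 0.977, limma) by clone 30a24. Dram1 was 6.81-fold higher by clone 29g17 and 0.943-fold by clone 37b14 (adjusted p = 0.705, limma). Whether those clones carry the sequence of the gene they are named for was not tested. Cdkl2, a protein kinase gene read by 1 clone, was 46.6-fold higher (adjusted p = 1.84e-08, limma), and 9130230L23Rik, also with 1 clone, was not called (0.10, adjusted p = 0.635).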

How the data were processed

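The authors hybridized direct-labeled sample cDNA (Cy5) and reference cDNA (Cy3) to spotted cDNA arrays. The paper gives the reference RNA as a mixture of ovary, liver, spleen, kidney, thymus, pancreas, lung and lactating mammary gland. They normalized each array and deposited log2 ratios of sample over reference, used here as given, with 8 of 998400 values missing. Their filter on spot quality was not repeated. Arrays of the 8.7k type entered no comparison. The 3 fat samples were in no group compared, but the alternative with all groups in one fit held them, and so did its variance.

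The 15360 clones were fitted with limma 3.58.1 (R 4.3.3), lmFit and eBayes, with only the groups compared, and p-values were adjusted by Benjamini-Hochberg over all clones. A clone needed a value in 50% of the arrays of each group. Permutation tests used scipy 1.17.1 (Python 3.11.15). For cell type lists, clones were averaged per gene. The p-values measure spread between the samples, whose number limits precision. The fit was checked on simulated data with 200 changed clones.

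The 4 genes and the 13 lists were chosen with earlier results of these data known. Named genes were the 4 members, in each list the 3 called genes of smallest adjusted p in WntM against WntT, and the 8 genes of highest likeness. Sftpd and the separate clones of the likeness genes were named after their values were seen. Alternatives were array centring, quantile normalization, ratios under 0.01 or over 100 set missing, arrays of SD over 1.3 left out, clones averaged per gene, eBayes with trend and robust, all groups in one fit, the methods' t-test by permutation at P under 0.001, no filter, a replicate block and single arrays left out.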

Additional observations from a re-analysis of the deposited data

Results flagged for a closer look

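The values of the 5 clones in WntM, NeuM, WntHMG and VMG (5 to 10 arrays each) were checked for a single array far from the rest. In these 20 checks 3 arrays were found, and primary tumors were not checked. Chance picks out about 1 in 20 such checks. Sftpb clone 11g9 had a log2 ratio of -1.54 in VMG 13, the lowest of 5 virgin glands by 0.802 of the whole range. Sftpc had -2.30 in VMG 29, the highest virgin gland by 0.773 of the range. Scgb1a1 had -0.0385 in NeuM 61, the highest of 5 Neu metastases by 0.72 of the range.

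The difference between metastases and tumors itself differed between the transgenes for 2 clones by the interaction test in limma. It was larger for Wnt-1 by 3.67 on the log2 scale for Scgb3a2 and by 1.00 for Sftpb clone 11g9.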

How the results depend on the processing

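In WntM against WntT, 103 of 104 alternative values of the 5 clones kept their direction and their side of the threshold. The exception was Scgb3a2 with a replicate block by the numbers in the titles (4.19, adjusted p = 0.0937, limma). In NeuM against NeuT 78 of 84 did. No NeuM or NeuT array had an SD over 1.3, so that setting could not change the NeuM against NeuT values. Without the filter the same 15360 clones were tested in every metastasis comparison, so those values could not change either. With the replicate block in NeuM against NeuT, Sftpb clone 19a23 (3.32), Sftpc (5.62) and Scgb1a1 (4.86) did not pass (0 of 5 clones). Same-numbered arrays were not shown to be paired: deviations from the group means gave r over 0.1 in 3 of 7 WntM and 2 of 3 NeuM pairs, and 3 of the 7 and 2 of the 3 were best with their own number. The median r was 0.069 for equal and -0.071 for other numbers in WntM, and 0.108 and -0.032 in NeuM. Pairing was thus neither shown nor excluded. Sftpb clone 11g9 passed in NeuM against NeuT by the methods' t-test (0.70) and in one fit of all groups (0.70). The mean of both Sftpb clones passed too (2.00), which is no result of clone 11g9 alone, as clone 19a23 differed by 3.31. In each comparison that has this setting, the mean is entered under both clones.

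In WntM against NeuM, 52 of 75 values kept their call. By the methods' t-test 0 of 5 passed (0.73 for Sftpb clone 11g9, 2.55 for 19a23, 1.82 for Sftpc, 3.07 for Scgb1a1 and 2.76 for Scgb3a2). Without the tail-vein arrays 0 passed (0.61, 2.12, 1.27, 2.74 and 2.35 in the same order). With arrays of SD over 1.3 left out 3 passed, and Sftpb clone 11g9 (0.58) and Sftpc (1.67) did not. In one fit of all groups, which also held the fat samples, Sftpc did not (1.82). With single arrays left out 2 to 5 passed, with 0.63 to 0.91 for Sftpb clone 11g9, 1.44 to 2.55 for Sftpc and 2.49 to 3.08 for Scgb3a2.

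For the interaction, 64 of 74 values kept their call. Sftpb clone 19a23 passed after quantile normalization (2.79), with extreme ratios missing (2.22) and without WntT 42 (2.22, added after the data were seen). Sftpb clone 11g9 did not pass with arrays of SD over 1.3 left out (0.84, 1 of 5 clones passing) or without the tail-vein arrays (0.87, 1 of 5). The mean of both Sftpb clones did not pass either (1.74). With single arrays left out 1 to 4 clones passed, with 0.89 to 1.17 for Sftpb clone 11g9, 2.18 to 3.10 for 19a23 and 2.19 to 3.11 for Scgb1a1. The airway balance ran between 0.963 and 1.47 with single arrays left out, and was 0.731 (exact permutation p = 0.242) with Sftpb clone 19a23 alone, also added after the data were seen.

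Against VMG, WntT values turned under quantile normalization for Sftpb clone 19a23 (0.52), Sftpc (0.34) and Scgb1a1 (0.96), with 2 of 5 clones called higher, as did NeuT values (0.38, 0.043 and 0.48). With single VMG arrays left out, 0 to 1 clones passed in WntT. In WntHMG, Scgb3a2 turned when arrays were centred (0.024) or quantile normalized (0.12), and between -0.088 and 0.060 with single arrays left out, and Sftpc ran between -0.038 and 0.71. None of these turned values passed.

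Counts over all clones moved too. WntM against WntT called 710 clones, 337 with arrays of SD over 1.3 left out and 102 with the replicate block. NeuM against NeuT called 29 (0 lower, with 1039 clones at an unadjusted p under 0.05 in either direction), 18 after quantile normalization (16 higher and 2 lower), 17 with trend and robust, 56 in one fit, 5 with the block, 12 without NeuM 56 and 19 without NeuM 61. The interaction called 16 (11 higher and 5 lower), 18 after quantile normalization (15 and 3), 9 with arrays of SD over 1.3 left out, 10 without the tail-vein arrays and 29 without NeuM 61. With ratios under 0.01 missing, Scgb1a1 had too few values in tumors or glands and gave no value in those comparisons.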

Other observations

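The 3 fat samples of the same array print were in no group compared and entered only the single fit of all groups. Their log2 ratios of Sftpb clone 19a23 were -10.97, -4.87 and -3.99 as lowest, median and highest, and those of Scgb3a2 were -9.97, -3.03 and -2.50. The lowest value of each came from Fat 44, whose spread of log2 ratios was the widest of all 65 arrays (SD 2.59). Sftpb clone 11g9 stayed between -0.47 and -0.20 in the same samples.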
